A study of Rattus norvegicus with 8 samples.

Results

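Cd36, Ephx2, Gstm1 and Acsm3 are 4 genes that have been described, in tissues other than sympathetic ganglia, as altered in sequence or in expression in the spontaneously hypertensive rat (SHR). They were taken by their RefSeq records, NM_031561 for Cd36, NM_022936 for Ephx2, NM_017014 for Gstm1 and NM_033231 for Acsm3, and all 4 were present among the 18314 records measured. RNA of the right stellate ganglion, a sympathetic ganglion whose neurons innervate the heart, was sequenced from 4 Wistar rats and 4 SHR, all 16 weeks old and, per the study's methods, male, with 1 library per rat. The SHR is an inbred strain that develops high blood pressure, and Wistar is an outbred stock that was used as the normotensive control. Neither group carried a transgene or received a drug, so strain was the only labelled difference, and any genetic difference between the strains comes with it. The files hold expression values and no genotypes, so whether these SHR or Wistar rats carried a variant of any of the 4 genes was not tested.

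The 4 genes encode proteins of lipid and detoxification metabolism. Cd36, also called fatty acid translocase, is a membrane scavenger receptor that takes up long-chain fatty acids and oxidised lipoproteins and is well known in adipocytes, macrophages and capillary endothelium. A defective Cd36 gene has been described in some SHR colonies and not in others. Ephx2, the soluble epoxide hydrolase, turns epoxyeicosatrienoic acids, lipid mediators that relax blood vessels, into less active diols. Gstm1 is a mu-class glutathione S-transferase that joins glutathione to reactive compounds. Acsm3, a mitochondrial medium-chain acyl-CoA synthetase, was first named SA for its raised expression in the kidney of hypertensive rats.

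The estimated counts of a rat added up to 25820299 at the fewest, in SHR replicate 2, and 35509074 at the most, in Wistar replicate 1. Marker genes of sympathetic neurons, summed as normalised counts (counts scaled to a common library size), lay between 591885 and 836961 in every rat, and no gene of that list was at 0. Replicate 1 of each strain stood apart from the other rats of its strain. Pairs that included it had a chi-square per degree of freedom of 47.9 to 88.0 in Wistar and 72.9 to 118 in SHR, against 23.7 to 30.6 and 42.9 to 58.5 for the pairs without it. Over 1066 records that differed between the other 3 rats of each strain, SHR replicate 1 lay nearer to its own strain in 41.5% and Wistar replicate 1 in 47.3%. Among the 132 of these records with a log2 fold change of at least 2 in size the shares were 53.0% and 55.3%. The count tests of the 4 genes, of their summed relatives and of the called genes named below are therefore also given without both rats, a setting chosen after the data were seen.

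Across all 13659 records that passed the filter on low counts, edgeR's quasi-likelihood test called 389, or 2.85%, at a Benjamini-Hochberg adjusted p under 0.05. The calls split into 158 records (1.16%) with more RNA in SHR and 231 (1.69%) with less, or 190 and 183 with upper-quartile scaling, and 303 and 765 without replicate 1 of both strains. All 4 genes passed the filter, and 0 of the 4 were called, while 2 of the 4, Cd36 and Gstm1, had an unadjusted p under 0.05 against 16.8% of all records. DESeq2 called 782 of 14961 records, and 0 of the 4. The rank of their levels per transcript length was the same in 8 of 8 rats, with Gstm1 highest, followed by Ephx2, Cd36 and Acsm3. In TPM, which divides by transcript length and scales every library to the same total, the level of Gstm1 was above 96.1% of records in Wistar and 96.8% in SHR, while that of Acsm3 was above 21.2% and 21.5%.

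**Figure D1:**
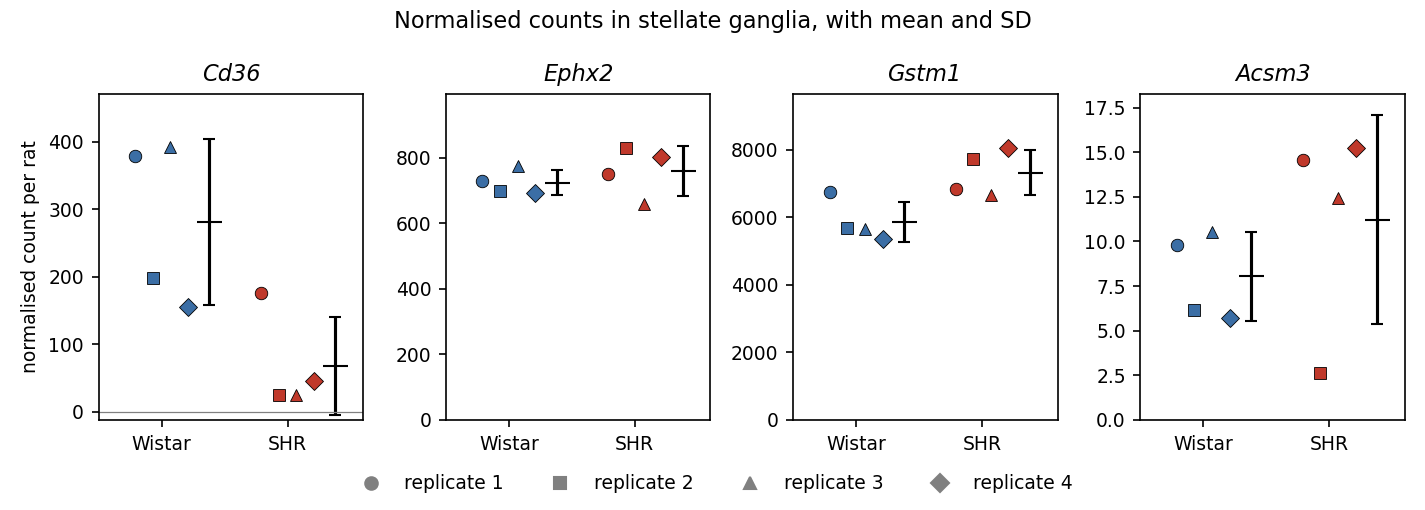
Normalised counts (y axis, linear, a separate scale for each gene) of Cd36, Ephx2, Gstm1 and Acsm3 in the 4 Wistar (blue) and 4 SHR (red) rats. Each symbol is 1 rat, its shape gives the replicate number, and the bar beside each group is the mean with the SD. The Cd36 counts of SHR replicates 2 to 4 lie between 24.5 and 45.8, below every Wistar rat, and SHR replicate 1 lies at 176, within the Wistar range.

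Cd36 was the gene with the largest difference between strains among the 4. Its normalised counts were 379, 198, 393 and 155 in Wistar replicates 1 to 4 and 176, 25.7, 24.5 and 45.8 in SHR replicates 1 to 4. SHR replicates 2 to 4 were below every Wistar rat, but SHR replicate 1 was above Wistar replicate 4, so that the strains overlapped through this 1 animal. Wistar rats averaged 281 ± 122 and SHR 68.1 ± 72.8 (SD, n = 4 per strain), and the SD of the SHR exceeded their mean. The log2 fold change was -2.04 with a standard error of 0.62, a level 4.11-fold lower in SHR with a 95% interval of -3.42 to -0.66 on the log2 scale. In edgeR's quasi-likelihood test the unadjusted p was 0.00822 and the Benjamini-Hochberg adjusted p was 0.131, so the difference did not pass the threshold across all records.

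Whether Cd36 passed depended on SHR replicate 1. Without it the SHR mean was 32.01 ± 11.98 (SD, n = 3), the log2 fold change was -3.11 with a standard error of 0.42, and the adjusted p in edgeR's quasi-likelihood test was 0.00464. In that fit 454 records, or 3.28%, were called. Without replicate 1 of both strains the log2 fold change of Cd36 was -2.95 and the adjusted p in edgeR's quasi-likelihood test was 0.00411, in a fit that called 7.79% of records. Leaving out any of the other 7 rats left Cd36 uncalled, Wistar replicate 1 included, in whose absence 2.34% of records were called.

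On the TPM scale Cd36 stood at 6.97, 4.03, 8.12 and 3.10 in the Wistar rats and at 3.38, 0.470, 0.544 and 0.873 in the SHR. SHR replicate 1 again fell inside the Wistar range, between Wistar replicates 4 and 2. The difference of the mean TPM had a two-sided exact permutation p of 0.0571, where the smallest p that 4 against 4 rats can give is 0.0286.

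Part of the Cd36 count was shared with Cd36l1 (NM_001109218), a Cd36-like record that the reference places next to Cd36. The estimated counts of Cd36 were not whole numbers in 7 of 8 rats, within a tolerance of 0.005, while the sum of the pair was whole in all 8, which is how the quantification divides reads that fit both records. Cd36 received 92.4% to 98.2% of the pair's counts in Wistar and 82.6% to 100% in SHR. With both records summed, the log2 fold change was -1.91 with an adjusted p of 0.171 in edgeR's quasi-likelihood test, and without replicate 1 of both strains it was -2.84 with an adjusted p of 0.00590 in edgeR's quasi-likelihood test.

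Cd36 is expressed by cell types that a dissected ganglion can carry, and SHR replicate 1 had the highest adipocyte and macrophage marker sums of the 8 rats. This rat also had the highest fibroblast sum, 67398, and the highest pericyte and smooth muscle sum, 4728. Its sympathetic neuron sum, 591885, and its satellite glia and Schwann cell sum, 105632, were the lowest. The 8 adipocyte markers, among them Adipoq and Plin1, summed to 1995, 351, 922 and 442 normalised counts in Wistar replicates 1 to 4 and to 4934, 470, 273 and 361 in SHR replicates 1 to 4. All 8 were highest in SHR replicate 1, and none was at 0 in any rat. The 8 macrophage markers summed to 3459 to 5689 in Wistar and to 7652, 6023, 1553 and 2048 in the SHR, with SHR replicate 1 again highest. The 8 endothelial markers measured summed to 3452 to 5381 in Wistar and to 5184, 3586, 3748 and 2974 in the SHR, where SHR replicate 1 lay inside the Wistar range. Of the 23 tested records of these 3 lists, edgeR called 0 and 1 had an unadjusted p under 0.05, beside 2.85% and 16.8% of all tested records. DESeq2 called 1, Cidec, beside 782 of all its 14961 records. In bulk tissue, fewer cells of a type and less RNA per cell cannot be told apart.

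As a description, Cd36 was also divided by these marker sums within each library. Per 1000 adipocyte marker counts there were 190, 563, 426 and 350 Cd36 counts in the Wistar rats and 35.7, 54.8, 89.7 and 127 in the SHR. The range per 1000 endothelial marker counts was 37.5 to 110 in Wistar and 6.53 to 34.0 in SHR, and per 1000 macrophage marker counts it was 43.7 to 77.9 and 4.27 to 23.0. None of the 3 ratios overlapped between strains, but they share the Cd36 count and were chosen after the counts had been seen. The high marker sums of SHR replicate 1 by themselves also lower its ratios. For these reasons the two-sided exact permutation p of each ratio, 0.0286 and the smallest possible, is not taken as support for a difference. Over the other 3 rats of each strain, the ratio to adipocyte markers was 350 to 563 in Wistar and 54.8 to 127 in SHR. Wistar replicates 2 and 4 had adipocyte sums of 351 and 442, within the 273 to 470 of SHR replicates 2 to 4, and Cd36 counts of 198 and 155 against 24.5 to 45.8. These rats were picked after the counts had been seen. Their endothelial sums, 4364 and 4132, lay above the 2974 to 3748 of SHR replicates 2 to 4. The same held for their pericyte and smooth muscle sums, 4012 and 4300 against 1483 to 3912. Their macrophage sums, 4523 and 3459, lay above SHR replicates 3 and 4, at 1553 and 2048, and below SHR replicate 2, at 6023. What part the makeup of the tissue has in the Cd36 difference was not tested.

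**Figure D2:**
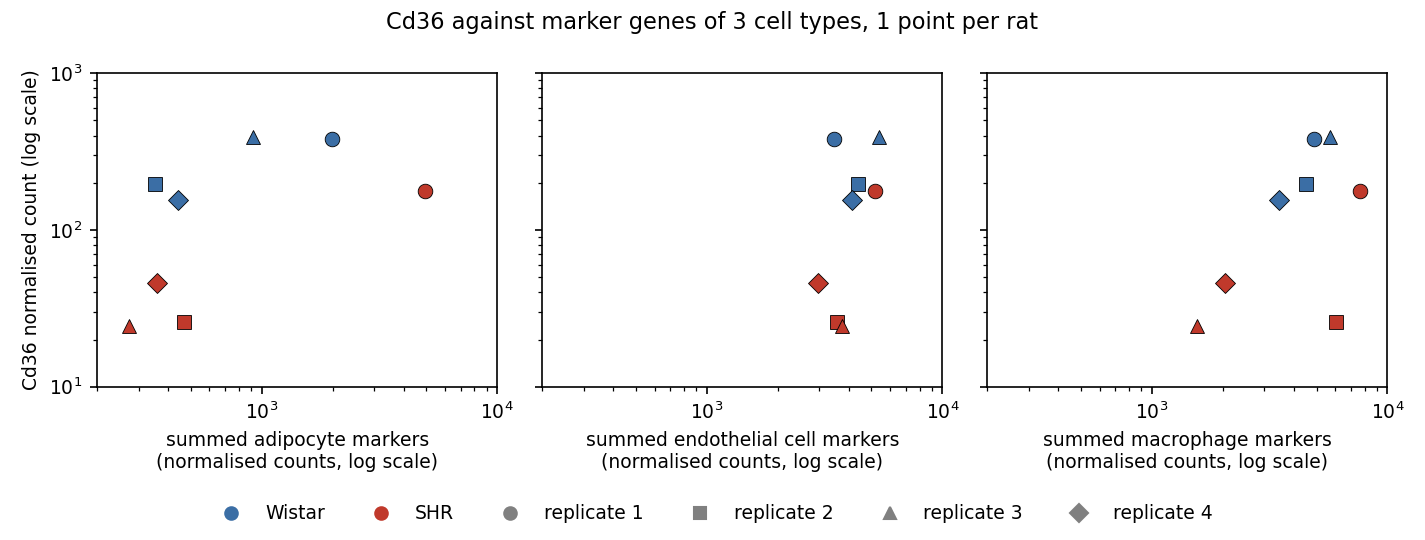
Cd36 normalised count (y axis, log scale) against the summed normalised counts of adipocyte, endothelial cell and macrophage markers (x axes, log scale) in the 8 rats. Blue symbols are Wistar and red symbols SHR, and the shape gives the replicate number. SHR replicate 1, at 4934 adipocyte marker counts, lies far to the right in the left panel, and SHR replicates 2 to 4 lie below all Wistar rats in each panel.

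Gstm1 was abundant and slightly higher in SHR. Its normalised counts were 6736, 5681, 5664 and 5366 in Wistar replicates 1 to 4 and 6827, 7732, 6670.0 and 8050 in SHR replicates 1 to 4. Only SHR replicate 3 lay below a Wistar rat, replicate 1, and all other SHR exceeded all Wistar rats. The means were 5862 ± 600.5 and 7320 ± 675 (SD, n = 4 per strain). The log2 fold change was 0.32 with a standard error of 0.10 and a 95% interval of 0.09 to 0.55, a 1.25-fold difference. Its unadjusted p was 0.0103 and its adjusted p was 0.146 in edgeR's quasi-likelihood test, so Gstm1 was not called with all 8 rats.

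In TPM the strains did not overlap for Gstm1, with 259, 240, 240 and 219 in the Wistar rats and 267, 293, 301 and 321 in the SHR. The two-sided exact permutation p for the mean TPM was 0.0286, the smallest possible, without adjustment for the 4 genes compared in this way. Of all tested records, 10.6% had normalised counts that did not overlap between strains, and Gstm1 was not among these because of SHR replicate 3. The share of records that did not overlap in TPM was not computed, so the separation of Gstm1 in TPM has no background beside it. Without replicate 1 of both strains its log2 fold change was 0.42 with an adjusted p of 0.0323 in edgeR's quasi-likelihood test, in the fit that called 7.79% of records. The log2 fold change was above 0 in each of the 8 fits without 1 rat, at 0.28 to 0.39, and the adjusted p of edgeR's quasi-likelihood test was 0.0769 to 0.297.

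Gstm1 belongs to a cluster of similar genes, and its count is uncertain for that reason. The estimated count of Gstm1 was not whole in any of the 8 rats, and no single other record completed it. The 8 Gstm records summed came within 0.029 of a whole number, which is outside the tolerance of 0.005. The Gstm5 counts were whole in all 8 rats, so no reads were divided with Gstm5. By mean TPM Gstm1, at 268, stood behind Gstm7, at 352, and near Gstm2, at 287, and ahead of Gstm5, Gstm4 and Gstm6. The order of Gstm1 and Gstm2 rested on SHR replicate 1, without which their means were 267.8 and 263.7 TPM, and Gstm1 exceeded Gstm2 in 3 of 8 rats. Gstm3 reached at most 1.45 TPM and Gstm6l at most 0.0701 TPM. With the 8 records summed, the log2 fold change was 0.04 with an adjusted p of 0.930 in edgeR's quasi-likelihood test. The sum had, without replicate 1 of both strains, a log2 fold change of 0.26 with an adjusted p of 0.212 in edgeR's quasi-likelihood test.

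The family did not move as one. Gstm7 had 14480.0 normalised counts in Wistar replicate 1 and 9126 to 9404 in the other Wistar rats, and 8722 to 11299 in the SHR. Gstm4 had 7706 in Wistar replicate 1, against 1830 to 2217 in the other Wistar rats and 1959 to 2347 in the SHR. Gstm2 was highest in SHR replicate 1, at 5905, with the other 7 rats between 2766 and 4449. In each of these genes the strains overlapped, and a single replicate 1 rat was the highest of all 8. Gstm1 made up 18.1%, 22.2%, 20.9% and 22.0% of the summed Gstm TPM in the Wistar rats and 20.6%, 22.9%, 26.1% and 25.7% in the SHR. This share overlapped between strains through SHR replicate 1 alone, with means of 20.8% and 23.8% and a two-sided exact permutation p of 0.143. Over the other 3 rats of each strain it was 20.9% to 22.2% in Wistar and 22.9% to 26.1% in SHR. Leaving out SHR replicate 1 fixed this separation in advance, so it adds nothing to the comparison of all rats.

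**Figure D3:**
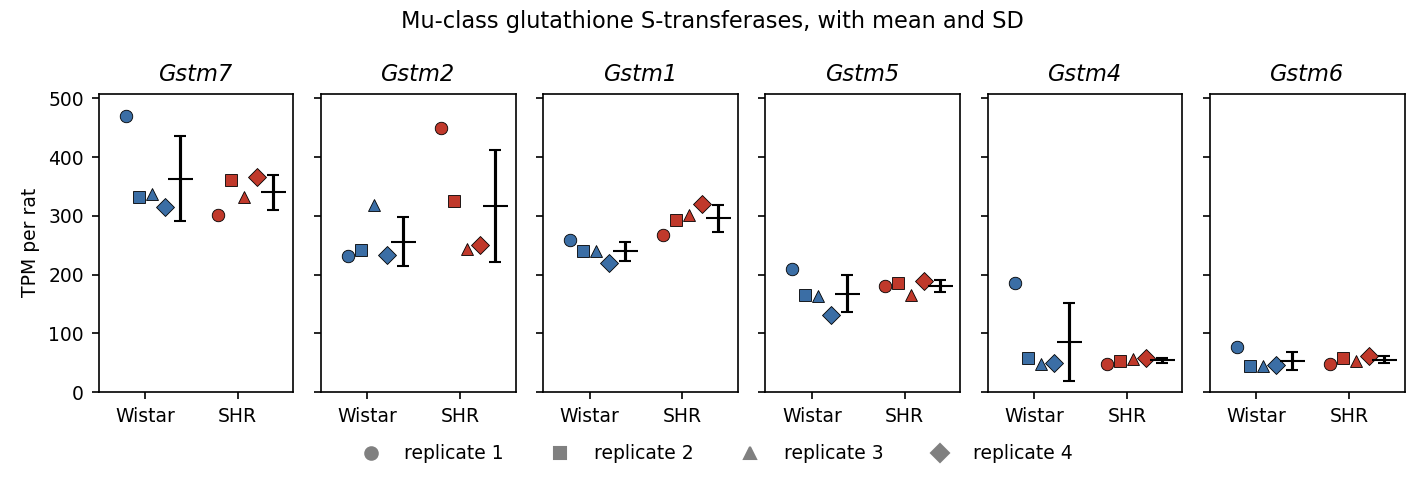
TPM (y axis, linear, shared scale) of the 6 more abundant mu-class glutathione S-transferase genes in each Wistar (blue) and SHR (red) rat, with the mean and SD beside each group. Gstm1 is at 219 to 259 TPM in Wistar and 267 to 321 in SHR, while Wistar replicate 1 (circle) stands above the other Wistar rats for Gstm7 and Gstm4.

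Ephx2 was measured at a moderate level with little spread. Its normalised counts were 728, 699.6, 776 and 693 in Wistar replicates 1 to 4 and 751, 830, 658 and 802 in SHR replicates 1 to 4. The lowest rat was an SHR and the highest was also an SHR, so the Wistar range lay inside the SHR range. The means were 724 ± 38.1 and 760 ± 75.8 (SD, n = 4 per strain). The log2 fold change was 0.07, with a 95% interval of -0.17 to 0.31 that reaches 1.24-fold higher and 0.887 of the Wistar level at its ends, and the adjusted p was 0.787 in edgeR's quasi-likelihood test. In TPM, Ephx2 ranged from 13.9 to 16.4 in Wistar and from 14.6 to 15.9 in SHR, and the two-sided exact permutation p was 0.457. The Ephx2 counts were whole in all 8 rats, so no reads were divided with another record. Without replicate 1 of both strains the log2 fold change was again 0.07, with an adjusted p of 0.810 in edgeR's quasi-likelihood test.

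Acsm3 was the lowest of the 4 genes in every rat. Its estimated counts were 10.2, 5.76, 11.4 and 6 in Wistar replicates 1 to 4 and 14.4, 2.03, 13.2 and 16.2 in SHR replicates 1 to 4. SHR replicates 1, 3 and 4 were above all Wistar rats and SHR replicate 2 was below them all, so the strains overlapped. The normalised means were 8.04 ± 2.48 and 11.2 ± 5.86 (SD, n = 4 per strain), and the log2 fold change was 0.48 with a standard error of 0.55. The 95% interval, -0.75 to 1.70, spans 0.596 to 3.26 times the Wistar level, and the adjusted p was 0.699 in edgeR's quasi-likelihood test. The TPM of Acsm3 was 0.106 to 0.203 in Wistar and 0.0448 to 0.273 in SHR, with a two-sided exact permutation p of 0.371.

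Reads of Acsm3 were also divided with Eri2 (NM_001191114), an exonuclease gene that lies beside it in the reference. Acsm3 held 5.19% to 8.50% of the pair's counts in Wistar and 3.32% to 13.5% in SHR, and the pair summed to 96.0 to 172 counts in Wistar and 61.0 to 148 in SHR. The sum of the pair is thus mostly Eri2, and its log2 fold change, -0.10 with an adjusted p of 0.868 in edgeR's quasi-likelihood test, lies near the -0.15 of Eri2 alone and does not bear on the direction of Acsm3. Without replicate 1 of both strains the log2 fold change of Acsm3 was 0.43, with an adjusted p of 0.777 in edgeR's quasi-likelihood test.

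**Figure D4:**
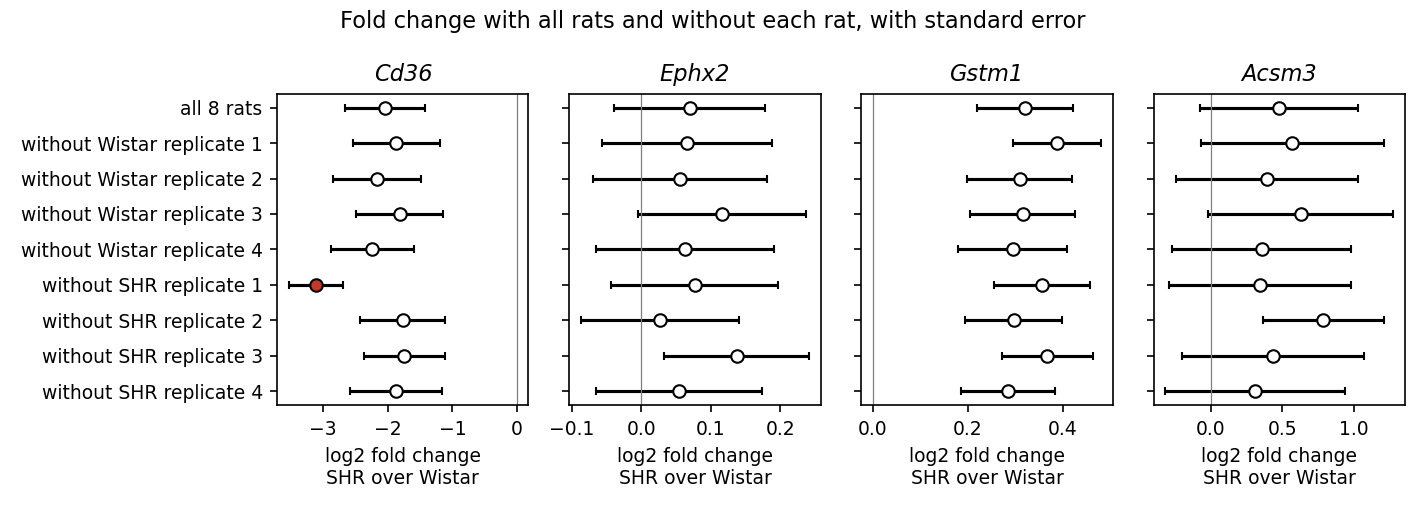
Log2 fold change of SHR over Wistar (x axis, a separate scale for each gene) with its standard error, fitted with all 8 rats and without each rat in turn (y axis). A filled red symbol marks an adjusted p under 0.05 in edgeR's quasi-likelihood test. Cd36 is called in 1 of these fits, without SHR replicate 1, and the signs of all 4 genes are the same in all 9 rows.

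The pathways around the 4 genes were read from lists of related genes. Of 34 tested records of fatty acid uptake and handling, 1 was called, near the 2.85% of all tested records. This was Fabp3, the heart-type fatty acid binding protein, which was lower in SHR, with 1617, 1194, 1331 and 1415 normalised counts in the Wistar rats and 820, 1082, 722 and 937 in the SHR. Its log2 fold change was -0.64 with an adjusted p of 0.0472 in edgeR's quasi-likelihood test, the strains did not overlap, and it kept its call in 1 of 8 fits without 1 rat, the one without SHR replicate 2. Without replicate 1 of both strains its adjusted p was 0.0824 in edgeR's quasi-likelihood test. The median log2 fold change of this list was -0.06, beside 0.01 for all tested records. Of 11 scavenger receptor and thrombospondin records, 0 were called by edgeR or DESeq2 and 1 had an unadjusted p under 0.05, beside 16.8% of all tested records. The 2 most abundant of them were Scarb1, a receptor for high-density lipoprotein, with a log2 fold change of -0.36, and Thbs4, a secreted thrombospondin, with -0.43. With all rats Scarb1 had an adjusted p of 0.293 in edgeR's quasi-likelihood test, and it was called in 0 of 8 fits without 1 rat. It passed without replicate 1 of both strains, with an adjusted p of 0.0345 in edgeR's quasi-likelihood test. That fit called 7.79% of records.

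For Ephx2, 17 records of epoxide hydrolases and epoxyeicosanoid enzymes were tested, of which 0 were called by edgeR, beside 2.85% of all tested records. Of the 17, 4 had an unadjusted p under 0.05 in edgeR's quasi-likelihood test, beside 16.8% of all tested records. DESeq2 called 1, Cyp4f5, beside 782 of all its 14961 records. The 2 most abundant were Por, the reductase that serves cytochrome P450 enzymes, with a log2 fold change of -0.11, and Lta4h, the leukotriene A4 hydrolase, with 0.23. For Acsm3, 0 of 10 records of medium and short chain acyl-CoA synthetases were called by edgeR or DESeq2. Of these, 1 had an unadjusted p under 0.05, beside the same shares of all tested records. Aacs, which activates acetoacetate, had a log2 fold change of -0.10, and Acsbg1, an acyl-CoA synthetase of neural and steroid-producing tissue, had 0.10.

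In the 2 lists of glutathione genes, 3 records were called, each with a larger fold change than Gstm1. Of 24 glutathione S-transferase records, a list without Gstm1, 1 was called by edgeR, beside 2.85% of all tested records, and DESeq2 added Gsta6. In this list 7 had an unadjusted p under 0.05 in edgeR's quasi-likelihood test, beside 16.8% of all tested records. Gsta4, an alpha-class transferase that handles the lipid peroxidation product hydroxynonenal, had 216, 211, 253 and 227 normalised counts in the Wistar rats and 1533, 1835, 1295 and 1578 in the SHR. Replicate 1 of each strain lay with its own strain here, and the log2 fold change of Gsta4 was 2.78 with an adjusted p of 7.04e-06 in edgeR's quasi-likelihood test. Of 19 records of glutathione synthesis and recycling, 1 was higher and 1 was lower in SHR, beside 1.16% and 1.69% of all tested records. An unadjusted p under 0.05 in edgeR's quasi-likelihood test was found for 6 of the 19. Gclc, the catalytic subunit of the enzyme for the first step of glutathione synthesis, rose by 1.06 on the log2 scale with an adjusted p of 0.00808 in edgeR's quasi-likelihood test. Gpx2, a glutathione peroxidase, fell by 2.64 on the log2 scale with an adjusted p of 0.000970 in edgeR's quasi-likelihood test. Gsta4, Gclc and Gpx2 each kept their call in 8 of 8 fits without 1 rat. Their log2 fold changes without replicate 1 of both strains were 2.76, 1.07 and -2.86, all called, the largest adjusted p of edgeR's quasi-likelihood test being 0.0112 for Gclc. The medians of the 2 lists were 0.10 and 0.13 on the log2 scale.

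The genes that lie beside the 4 on their chromosomes were read in the order of the RefSeq annotation of GRCr8, since the deposited values carry no positions. Of 24 nearest measured neighbours, 3 on each side of each gene, 21 were tested and 1 was called, beside 2.85% of all tested records. This was Sema3c, a secreted semaphorin that guides axons, which lies on the far side of Cd36l1 from Cd36. Its normalised counts were 1178, 1505, 1501 and 1430 in the Wistar rats and 999, 894, 903 and 934 in the SHR, without overlap. The log2 fold change of Sema3c was -0.59 with an adjusted p of 0.0158 in edgeR's quasi-likelihood test. It kept its call in 3 of 8 fits without 1 rat and lost it without SHR replicate 2 or 4 or Wistar replicate 2, 3 or 4, and was called without replicate 1 of both strains, at -0.71 with an adjusted p of 0.00387 in edgeR's quasi-likelihood test. On the other side of Cd36, Gnai1, an inhibitory G protein subunit, and Magi2, a synaptic scaffold, both had a log2 fold change of 0.00, and Gnat3 was too low to be tested. Beside Ephx2, Clu, a secreted chaperone, had a log2 fold change of -0.24 without overlap between strains and an adjusted p of 0.213 in edgeR's quasi-likelihood test. Beside Acsm3, Thumpd1 had a log2 fold change of -0.53 with an adjusted p of 0.323 in edgeR's quasi-likelihood test with all rats. It was called in 0 of 8 fits without 1 rat. Without replicate 1 of both strains its log2 fold change was -0.97 with an adjusted p of 0.00492 in edgeR's quasi-likelihood test. That fit called 7.79% of records.

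**Figure D5:**
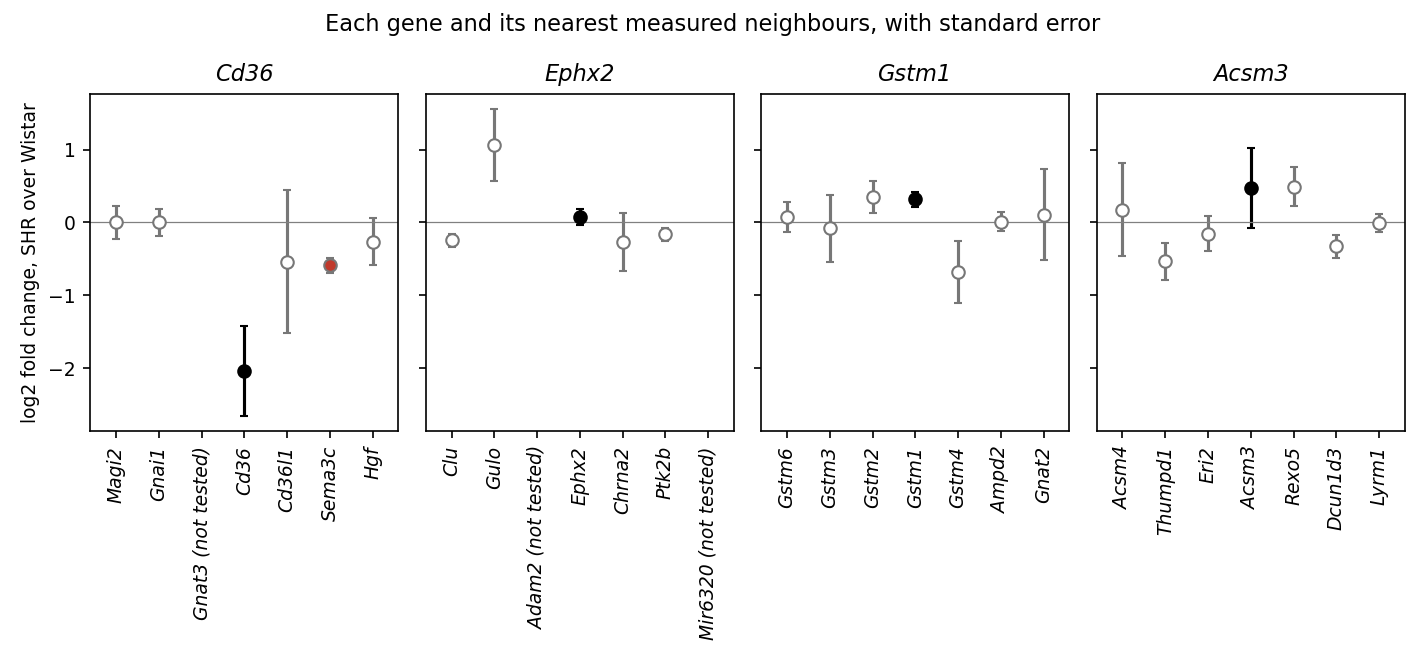
Log2 fold change of SHR over Wistar (y axis) with its standard error for each of the 4 genes (black) and the 3 nearest measured genes on each side (grey), in chromosomal order of the GRCr8 annotation and not to scale of distance. A red symbol marks an adjusted p under 0.05 in edgeR's quasi-likelihood test, which Sema3c alone had among the genes drawn. Cd36, at -2.04, is the lowest of all.

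The genes whose level was most like that of each of the 4 over the 8 rats were named by Pearson's r of log2 CPM (counts scaled to a common library total), as a description in which strain and library are shared by all points. For Cd36 they were Phykpl (r = 0.991), Ptpro (r = 0.987) and Msantd1 (r = 0.984), which had log2 fold changes of -0.58, -0.86 and -1.49 between the strains. With deviations from the strain means in place of the levels, Cyp2j4, an enzyme that makes epoxyeicosatrienoic acids, had the highest r with Cd36, at 0.992, and was at a log2 fold change of 0.00 between strains. For Gstm1 the most alike were Erg28 (r = 0.98), Tmem127 (r = 0.976) and Rgs17 (r = 0.976). Ephx2 was followed most closely by Apold1 (r = 0.954), a record at 7.53 to 38.9 normalised counts, and Acsm3 by Irf2bpl (r = 0.982). All these r were picked as the highest among 13659 tested records over only 8 rats, a choice that by itself gives high values.

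The sequence before the transcript start is shown for Cd36 and Gstm1, the 2 genes with an unadjusted p under 0.05. It is the RefSeq reference sequence of build GRCr8, from neither of the strains measured, given 5′ to 3′ on the strand of the gene, and the 250 bases end at the base before the start. Capitals mark TATAAA on either strand and AGGTCA, the letters of a nuclear receptor half-site. Cd36 lies on chromosome 4, plus strand, with this stretch at chr4:18246332-18246581, and Gstm1 on chromosome 2, minus strand, at chr2:198343384-198343633.
Cd36: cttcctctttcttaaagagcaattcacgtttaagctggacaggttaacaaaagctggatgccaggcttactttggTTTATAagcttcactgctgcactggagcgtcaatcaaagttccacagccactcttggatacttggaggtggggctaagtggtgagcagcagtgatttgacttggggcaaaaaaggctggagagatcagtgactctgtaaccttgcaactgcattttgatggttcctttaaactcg
Gstm1: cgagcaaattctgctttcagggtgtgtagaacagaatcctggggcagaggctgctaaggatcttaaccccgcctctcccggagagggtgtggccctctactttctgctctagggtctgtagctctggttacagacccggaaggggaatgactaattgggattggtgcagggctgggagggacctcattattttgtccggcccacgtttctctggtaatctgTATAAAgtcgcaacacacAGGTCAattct
In Cd36 the capitals are TATAAA read on the opposite strand, whose match begins 175 bases before the start, and AGGTCA was not found. Gstm1 holds TATAAA from 29 bases and AGGTCA from 11 bases before the start. Over 33469 rat promoter stretches of the same length, 12.9% hold TATAAA and 14.1% hold AGGTCA on either strand, and TGACNNNGC, the core letters of the antioxidant response element, which 10.1% hold, is in neither gene's stretch. The same stretch of Acsm3 holds AGGTCA from 49 bases before the start. Such matches describe letters only, and binding was not measured.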

How the data were processed

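Right stellate ganglia of 4 Wistar rats and 4 SHR were sequenced, and the authors quantified each library, with 2 lanes joined, by Salmon 0.8.2 against RefSeq transcripts of build rn6, with correction for GC and positional bias. The submitters' processing notes also name FastQC 0.11.7. The deposited files give estimated counts and TPM per RefSeq record. Estimated counts divide reads that fit several records, so near-identical genes can trade counts. The labels name a TruSeq stranded kit and the study's methods an amplification step, which could raise the spread of rare transcripts.

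Estimated counts were rounded and tested in R 4.3.3 with edgeR 4.0.16 (TMM scaling, filterByExpr, quasi-likelihood test, strain as the only term, Benjamini-Hochberg adjustment over all 13659 records tested). Normalised counts are TMM-scaled CPM times the mean effective library size. TPM values were compared by exact two-sided permutation tests, with no adjustment over the 4 genes, although such an adjustment had been planned. DESeq2 1.42.0, limma 3.58.1 on log2 TPM with a pseudocount of 0.1 or 1, other scalings, filters, a length offset, glmQLFit with legacy=FALSE, a replicate block, records of a gene or all Gstm records summed, and fits without each rat were the alternatives. Code was tested on simulated data. The total of 25820299 to 35509074 estimated counts per rat sets the precision, and intervals from the fit cover the spread between rats.

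Gene names came from the RefSeq annotation of GRCr8, which paired 17360 of the 18314 records with a gene. Only names and neighbour order were taken from it, besides the promoter sequences, which the table holds for Cd36, Gstm1 and Acsm3 and not for Ephx2. The genes named are the 4, the called records of each list (or its 2 most abundant where none was called), 3 neighbours on each side, and the 3 most alike by Pearson's r (Cyp4f5, Gsta6 and Cidec were added after their values were seen). The 4 genes, the lists and the tests were chosen with earlier results of these data known. The replicate numbers of the labels were not taken to pair rats. Deviations from the strain means of same-numbered rats had correlations of -0.29, -0.12, -0.16 and -0.04. Such correlations cannot show whether rats were handled together, which the labels do not say.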

Additional observations from a re-analysis of the deposited data

Results flagged for a closer look

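In each strain, the gap between the highest or lowest rat and its nearest neighbour was divided by the range of the 4 rats and set against Dixon's critical value for 4 values. Over 100 such groups, 7 passed, and chance passes about 1 in 20. The normalised Cd36 count of SHR replicate 1 was 176, with 24.5 to 45.8 in the other SHR. The same rat had 4934 summed adipocyte marker counts. In Wistar replicate 1, Gstm4 stood at 7706, Gstm7 at 14480.0 and Gstm6 at 2197 normalised counts, each above the other Wistar rats. Wistar replicate 1 was also the lowest Wistar rat for Thumpd1, at 929, and for the summed pericyte and smooth muscle markers, at 2477. All 7 values belong to a replicate 1 rat. What part the makeup of these tissues has in the Cd36 count of SHR replicate 1 and the Gstm counts of Wistar replicate 1 was not tested.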

How the results depend on the processing

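The log2 fold changes of Cd36 (-3.11 to -1.74 without 1 rat), Gstm1 (0.28 to 0.39), Ephx2 (0.03 to 0.14) and Acsm3 (0.31 to 0.78) kept their sign in all fits without 1 rat. They also kept it in all other settings named under the processing. These were 13 for Cd36 and Ephx2, 14 for Gstm1 and 12 for Acsm3, which could not be fitted with at least 10 counts in every rat. Of the 14 for Gstm1, 1 is the sum of the 8 Gstm records, at 0.04, and not Gstm1 alone. In those other settings edgeR, DESeq2 and limma called 0 of the 4. The adjusted p of these tests was 0.0655 to 0.150 for Cd36 and 0.0549 to 0.4045 for Gstm1 alone, and 0.930 for the Gstm sum in edgeR's quasi-likelihood test. Cd36 passed without SHR replicate 1, at -3.11. Of the alternatives chosen after the data were seen, leaving out replicate 1 of both strains made Cd36 (-2.95, or -2.84 summed with Cd36l1) and Gstm1 (0.42) pass, for which the cause was not tested. Acsm3 summed with Eri2 was at -0.10, a sum that by construction is mostly Eri2. The 389 called records became 782 with DESeq2, 852 with DESeq2 and a length offset, 237 to 454 without 1 rat, and 1068 (303 higher, 765 lower) without replicate 1 of both strains. The fewest, 237, came without Wistar replicate 2, and 243, 238 and 248 came without Wistar replicate 3, Wistar replicate 4 and SHR replicate 4. With a replicate block 132 records were called, and Cd36 had a log2 fold change of -2.39, with no change of call for the 4 genes. The labels do not say whether the numbers pair the rats. Without 1 rat the difference of mean TPM was -5.06 to -3.39 for Cd36, 47.3 to 65.3 for Gstm1, 0.223 to 1.05 for Ephx2 and 0.0393 to 0.115 for Acsm3. With 4 rats per strain and 2.03 to 16.2 counts per rat, Acsm3 allows no statement on differences within its interval.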
